A study of Homo sapiens with 10 samples.

Results

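The 10 genes described here encode motor proteins of cell division: KIF11, KIF15, KIF14, KIF18A, KIF18B, KIF2C, KIFC1, KIF20A, KIF20B and KIF23. They were chosen by name from the 19962 protein-coding genes of the GENCODE release 44 annotation, and a peak was assigned to a gene when it overlapped the stretch from 2000 bp upstream to 500 bp downstream of any of its annotated transcript starts. By this rule 73 of 87112 Rb peaks belonged to the 10 promoters. Rb, the retinoblastoma protein, was located on chromatin by CUT&RUN, in which an antibody tethers a nuclease that cuts out the DNA around the bound protein. It was applied to 2 established human lines of high-grade serous ovarian cancer, OVCAR-3 and Kuramochi. Each line received DMSO, the solvent, or INX-315, an inhibitor of the cyclin-dependent kinase CDK2, at 300 nM for 2 days, and each of these 4 groups had 2 Rb libraries. Each line also had 1 library made with a non-specific IgG2a antibody from DMSO-treated cells. The libraries of a group were separate biological replicates of an experiment that, by the study's methods, was done once, so the tests below measure the spread within that experiment. The identity of the lines cannot be checked from peak lists of Rb.

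Kinesins walk along or take apart microtubules, and the mitotic members build the spindle, align the chromosomes and form the bridge at which daughter cells separate. Their genes are transcribed mainly in G2 and mitosis. In resting or arrested cells, genes of this class are held down by the DREAM complex, which binds a promoter element called the cell cycle genes homology region (CHR) and contains the Rb relatives p107 and p130, whereas Rb itself is classically brought to DNA by E2F factors at genes of the G1/S transition. NF-Y, which binds CCAAT boxes, is the usual activator of G2/M promoters. Active CDK2 phosphorylates Rb and weakens its hold on E2F.

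The promoters are shown here because the Rb peaks lie over them, and because the letters of these elements could be looked up in all 10. Each stretch runs from 100 bases before to 10 bases after the RefSeq start (GRCh38.p14, read 5′ to 3′ on the strand of the gene, with the start base counted as 1 and the base before it as -1). Capitals mark 4 kinds of letters: the CHR (TTTGAA), a variant spelling of it (TTTAAA), the CCAAT box and an E2F site. Those that match on the opposite strand appear as their reverse complement.
KIF11 (chr10:92593030-92593139, plus strand): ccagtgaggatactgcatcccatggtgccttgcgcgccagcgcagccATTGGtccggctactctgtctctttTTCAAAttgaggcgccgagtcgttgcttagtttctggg
KIF15 (chr3:44761694-44761803, plus strand): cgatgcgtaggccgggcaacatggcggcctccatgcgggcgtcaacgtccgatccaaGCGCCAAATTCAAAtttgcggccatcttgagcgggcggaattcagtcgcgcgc
KIF14 (chr1:200620742-200620851, minus strand): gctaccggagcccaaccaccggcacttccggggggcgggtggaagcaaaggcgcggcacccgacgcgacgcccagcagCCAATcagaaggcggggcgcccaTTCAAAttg
KIF18A (chr11:28108147-28108256, minus strand): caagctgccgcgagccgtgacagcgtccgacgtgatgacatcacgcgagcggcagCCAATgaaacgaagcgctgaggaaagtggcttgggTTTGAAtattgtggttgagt
KIF18B (chr17:44947764-44947873, minus strand): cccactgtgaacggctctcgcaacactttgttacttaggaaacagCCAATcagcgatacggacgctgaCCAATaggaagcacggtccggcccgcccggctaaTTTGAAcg
KIF2C (chr1:44739737-44739846, plus strand): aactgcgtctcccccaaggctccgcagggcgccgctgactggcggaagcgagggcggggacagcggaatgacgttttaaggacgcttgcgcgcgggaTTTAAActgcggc
KIFC1 (chr6:33391723-33391832, plus strand): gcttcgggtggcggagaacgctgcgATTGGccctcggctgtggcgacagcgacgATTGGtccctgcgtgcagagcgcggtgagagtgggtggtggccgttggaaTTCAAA
KIF20A (chr5:138179012-138179121, plus strand): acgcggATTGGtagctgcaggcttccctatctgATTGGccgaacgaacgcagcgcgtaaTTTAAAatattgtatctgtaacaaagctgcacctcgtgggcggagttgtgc
KIF20B (chr10:89701490-89701599, plus strand): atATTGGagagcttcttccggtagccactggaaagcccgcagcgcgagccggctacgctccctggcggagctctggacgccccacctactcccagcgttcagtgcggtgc
KIF20B second stretch (chr10:89701611-89701628, plus strand): ttgTTTGAATTTGAAaac
KIF23 (chr15:69414249-69414358, plus strand): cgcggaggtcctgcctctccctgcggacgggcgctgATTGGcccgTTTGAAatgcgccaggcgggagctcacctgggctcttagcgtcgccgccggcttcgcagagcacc

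All 10 genes matched 1 promoter window each, which reached from 250 bases before to 50 after the start. TTTGAA was present in 8 of the 10 windows and in 12.4% of the 21571 RefSeq windows of protein-coding genes. CCAAT was present in 8 of 10, against 34.8% of all windows, and both elements together in 7 of 10, against 5.00%. KIF15 and KIF2C lacked CCAAT, and KIF2C and KIF20A lacked TTTGAA but held TTTAAA at -3 to 3 and at -41 to -36. TTTAAA was added to the search after the sequences had been seen, and with it all 10 windows held 1 or the other spelling, against 20.1% of all windows. An E2F site, spelled TTTCCCGC, TTTCGCGC, TTTGCCGC or TTTGGCGC, was found in 1 of 10 windows, that of KIF15, against 4.14% of all windows. It ran from -43 to -36 and ended right before the CHR of that promoter. KIF20B differed in position: its pair of adjoining CHR copies lay downstream of the start, from 25 to 36, and is shown as a second stretch. Such matches describe letters only. They do not show that a factor was bound.

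The Rb libraries held between 5221 and 17281 peaks, with the INX-315 libraries holding the longer lists in both lines. The mean background, recovered from the peak lists and used as the measure of depth, ran from 0.216 to 0.501 fragments per base. At this depth the weakest peaks listed over mean background had a fold enrichment, the ratio of fragments at the summit to local background with 1 added to each, of 3.29 to 4.15 (3 to 5 fragments). A gene without a listed peak was therefore below a limit of this kind and not free of Rb. The IgG2a libraries had no peak at any of the 10 promoters, among 257 peaks in OVCAR-3 and 195 in Kuramochi. Only 25 and 12 of these peaks lay on the autosomes and chromosome X. The weakest of them over mean background in OVCAR-3 had a fold enrichment of 8.51 (12 fragments), and Kuramochi had none at mean background. Weaker signal may thus have gone unlisted, so the absence is little test of specificity.

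All 10 promoters had an Rb peak in at least 3 of the 8 libraries. Under DMSO, 24 of 40 pairs of gene and library had a peak, against 33.1% of such pairs over all protein-coding genes, and under INX-315 38 of 40 did, against 59.0%. A promoter was called bound when both libraries of a group had a peak. In OVCAR-3, 4 of 10 were bound with DMSO (26.8% of all protein-coding genes) and 9 of 10 with INX-315 (55.5%). In Kuramochi, 5 of 10 were bound with DMSO (24.9%) and 9 of 10 with INX-315 (53.2%). KIF11, KIF18B and KIF23 had a peak in all 8 libraries, which held for 18.8% of all protein-coding genes. Among the genes without a peak in either DMSO library of a line, KIF14 and KIF20A had one in both INX-315 libraries of OVCAR-3, which were 2 of 2 such kinesins (27.1% of all such genes). In Kuramochi this was so for KIF15 and KIF18A, 2 of 3 (23.5%), the other being KIF14. When each list was cut to its 5221 peaks of lowest p-value, so that list length was equal, OVCAR-3 had 2 bound promoters with DMSO (21.7% of all genes) and 4 with INX-315 (24.6%), and Kuramochi had 4 with DMSO (21.8%) and 4 with INX-315 (4994 of 19962 genes). None was then gained, of 3 free of DMSO peaks in OVCAR-3 and 4 in Kuramochi, and over all such genes 2.99% and 2.97% were. The counts also moved when single DMSO libraries were left out. Without OVCAR-3 DMSO replicate 2, 7 were bound with DMSO (30.1% of all genes). Without OVCAR-3 DMSO replicate 1, 4 of 5 were gained in that line (30.5%), and without Kuramochi DMSO replicate 2, 4 of 5 in Kuramochi (36.7%).

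**Figure D1:**
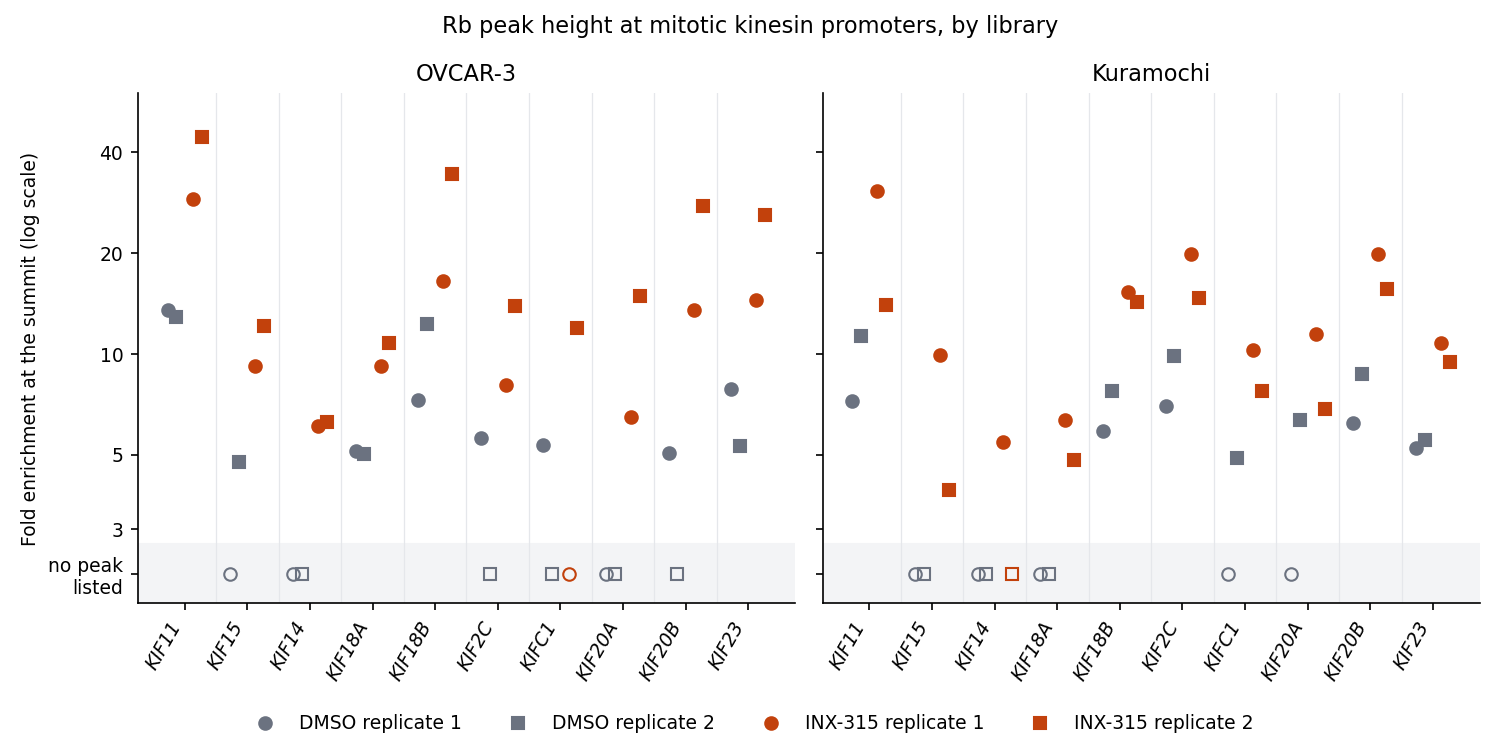
Fold enrichment (log scale) of the highest Rb peak at each promoter, 1 point per library, with grey for DMSO, orange for INX-315, circles for replicate 1 and squares for replicate 2. Open symbols in the shaded strip mark libraries with no listed peak, which were 16 of 40 under DMSO and 2 of 40 under INX-315.

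KIF11, also called Eg5, is the motor that slides antiparallel microtubules and pushes the spindle poles apart. It had the highest peak of the 10 genes in 7 of the 8 libraries. In the OVCAR-3 libraries its fold enrichment was 13.5 and 12.9 with DMSO and 29.1 and 44.5 with INX-315. The Kuramochi values were 7.23 and 11.3 with DMSO and 30.6 and 14.0 with INX-315. Both INX-315 values lay above both DMSO values in each line, by a wide margin in OVCAR-3 and a narrow one in Kuramochi. The summits rested on 22 to 73 fragments in OVCAR-3 and 10 to 42 in Kuramochi, and for the 10 fragments of Kuramochi DMSO replicate 1 the 95% Poisson interval, which covers counting error only, ran from 4.80 to 18.4. The gene lies on chromosome 10, with its canonical start at 92593130 on the plus strand. All 8 summits fell 73 to 164 bp downstream of that start, and the CHR at -28 to -23 lay a median of 136 bp from the summit.

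KIF11 has a further annotated start 19025 bp upstream, beside the starts of IDE, the insulin-degrading enzyme gene on the opposite strand. Around that start each library had a separate and lower peak, and Kuramochi INX-315 replicate 2 had 2 (7.88 and 4.11). The higher values were 8.03 and 9.32 with DMSO and 11.6 and 31.7 with INX-315 in OVCAR-3, and 5.26 and 6.36 with DMSO and 10.7 and 7.88 with INX-315 in Kuramochi. These peaks cannot be assigned to either gene, and no value of KIF11 elsewhere in the text rests on them.

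KIF15 backs up KIF11 in holding the poles apart. It had no peak in OVCAR-3 DMSO replicate 1, a fold enrichment of 4.77 in replicate 2, and 9.22 and 12.1 with INX-315. In Kuramochi no DMSO library had a peak and the INX-315 values were 9.96 and 3.94. The last value rested on 4 fragments (95% Poisson interval 1.09 to 10.2), and its summit lay at -150 bp, on the side of KIAA1143, whose start is 175 bp away on the opposite strand. It stood at percentile 6.33 of the fold enrichments in its list, and it did not reach the stricter q-value of 0.001, so that KIF15 was then no longer gained in Kuramochi.

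KIF18A dampens the swings of chromosomes on the metaphase plate. Its values in OVCAR-3 were 5.15 and 5.03 with DMSO and 9.22 and 10.8 with INX-315, with no overlap. In Kuramochi it had no peak with DMSO and values of 6.36 and 4.82 with INX-315. It was thus bound with DMSO in OVCAR-3 and not in Kuramochi, and the lines were not tested against each other for it. All 6 summits lay upstream of the start, from -189 to -18 bp, towards METTL15, whose start is 232 bp away on the opposite strand. Rb at this shared region cannot be assigned to 1 of the 2 genes.

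KIF18B, which works at microtubule plus ends and limits the length of astral microtubules, had values of 7.31 and 12.3 with DMSO and 16.5 and 34.5 with INX-315 in OVCAR-3. In Kuramochi the values were 5.91 and 7.77 with DMSO and 15.3 and 14.3 with INX-315. The groups did not overlap in either line, and the OVCAR-3 replicates were further apart than those of Kuramochi. The summits lay 80 to 217 bp downstream of the start in all 8 libraries, away from the divergent transcript KIF18B-DT, which starts 139 bp upstream. The peaks of OVCAR-3 DMSO replicate 1, OVCAR-3 INX-315 replicate 2 and Kuramochi INX-315 replicate 1 reached -214, -319 and -161 bp. They thus spanned both starts.

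KIF2C, or MCAK, is no walker but takes tubulin off microtubule ends and so helps to correct faulty attachments at kinetochores. In Kuramochi its values were 7.01 and 9.89 with DMSO and 19.9 and 14.7 with INX-315. In OVCAR-3 it had 5.63 in DMSO replicate 1, no peak in DMSO replicate 2, and 8.07 and 13.9 with INX-315. It was thus bound with DMSO in Kuramochi alone, although all but 1 library had a peak. The summits lay 4 to 160 bp downstream of the start, and both OVCAR-3 INX-315 libraries listed a second, weak peak (3.67 and 3.98) with summits at -1424 and -1375 bp. KIFC1, the minus-end motor that gathers extra centrosomes into 2 poles, had the least regular pattern. In OVCAR-3 it was listed at 5.35 in DMSO replicate 1 and 12.0 in INX-315 replicate 2 and not in the other libraries, and it was the 1 gene of the 10 not bound with INX-315 in that line. In Kuramochi it had no peak in DMSO replicate 1, 4.90 in replicate 2, and 10.3 and 7.75 with INX-315.

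KIF23, or MKLP1, is the motor subunit of centralspindlin, which bundles the central spindle and marks the division plane. Its values were 7.86 and 5.33 with DMSO and 14.5 and 26.0 with INX-315 in OVCAR-3, and 5.23 and 5.53 with DMSO and 10.8 and 9.46 with INX-315 in Kuramochi. The groups did not overlap in either line. Its summits were the most scattered of the genes listed in all 8 libraries, from -144 to 408 bp relative to the start, under peaks of 255 to 1098 bp. KIF23-AS1, a long non-coding RNA gene on the opposite strand, starts 680 bp downstream. The OVCAR-3 INX-315 peaks reached 686 and 689 bp, over that start. The summits at 404 bp (OVCAR-3 DMSO replicate 1) and 408 bp (Kuramochi DMSO replicate 2) lay nearer to it than to the canonical start.

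KIF20A, or MKLP2, carries the chromosomal passenger complex to the central spindle at anaphase. It had no DMSO peak in OVCAR-3 and values of 6.47 and 14.9 with INX-315. In Kuramochi DMSO replicate 1 had no peak, replicate 2 had 6.36, and the INX-315 libraries had 11.5 and 6.87. The 1 DMSO peak had its summit at -346 bp from the canonical KIF20A start, nearer to the BRD8 start at 482 bp upstream on the opposite strand. A further KIF20A start is annotated at 138178719, and the DMSO summit, at 138178766, lay closer to it than to the BRD8 start. The 4 INX-315 summits lay 151 to 267 bp downstream of the canonical KIF20A start. The INX-315 peaks were 676 to 1526 bp wide, and those of 3 libraries reached over the position of the DMSO summit. KIF20B, or MPP1, acts in the completion of cytokinesis. In OVCAR-3 it had 5.07 in DMSO replicate 1, none in replicate 2, and 13.5 and 27.7 with INX-315. In Kuramochi the values were 6.23 and 8.70 with DMSO and 19.9 and 15.6 with INX-315. Its 7 summits all lay upstream of the start, from -338 to -209 bp, beyond the start of a long non-coding RNA on the opposite strand (ENSG00000235100) at 174 bp. As at KIF18A, the peaks of KIF15, KIF20A and KIF20B lie between or over the starts of 2 genes and cannot be assigned to 1 of them, so the values tested for KIF20B are those of a shared region. Its CHR copies, downstream of the start, were a median of 342 and 348 bp from the summit, the longest such distances of the TTTGAA matches. KIF14, which works with citron kinase at the midbody, was the weakest target. It had no peak in any DMSO library, values of 6.09 and 6.26 in the INX-315 libraries of OVCAR-3, and 5.47 and no peak in those of Kuramochi.

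**Figure D2:**
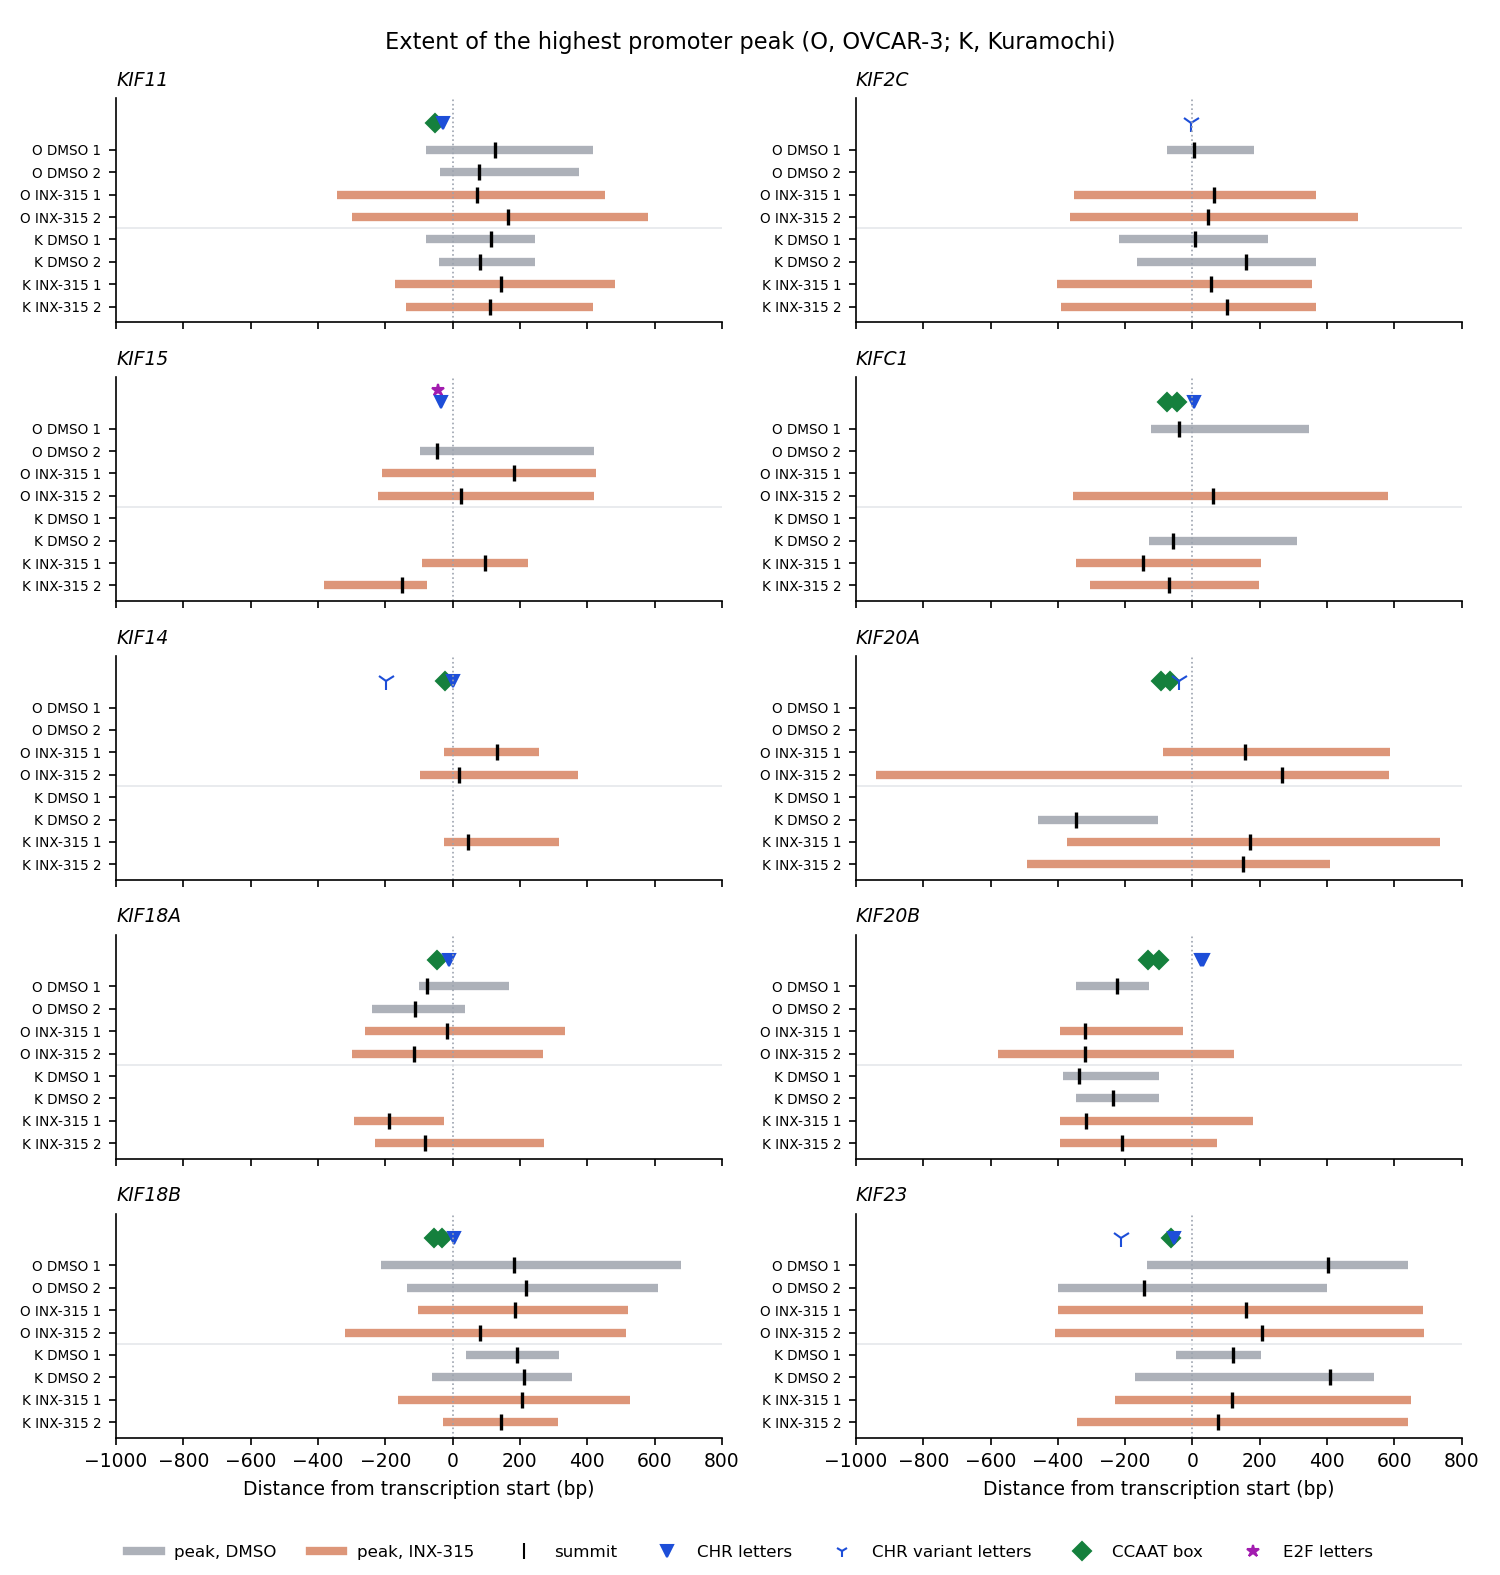
Extent of the highest Rb peak in each library, in bp from the canonical transcription start (dotted line), with the summit as a black tick, DMSO in grey and INX-315 in orange. Symbols above the peaks mark CHR, CHR variant, CCAAT and E2F letters, and rows without a bar had no listed peak. Summits of KIF11 and KIF18B lay downstream of the start in all libraries and those of KIF18A and KIF20B upstream.

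Over all 62 highest peaks the median summit lay 75.0 bp downstream of the start, and 54 were within 250 bp of it. KIF20B accounted for 4 of the other 8, KIF20A for 2 and KIF23 for 2.

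The genes differed in height within a library. Ranked among all Rb peaks of the list, the median kinesin promoter stood between percentile 30.5 (OVCAR-3 DMSO replicate 2) and 61.6 (Kuramochi INX-315 replicate 1). KIF11 ranged from percentile 56.6 to 95.2 and KIF14 from 25.8 to 27.9. The order below KIF11 changed between libraries: in OVCAR-3 with INX-315 KIF18B, KIF20B and KIF23 followed, and their values (16.5 and 34.5, 13.5 and 27.7, and 14.5 and 26.0) overlapped. In Kuramochi with INX-315 the values of KIF11 (30.6 and 14.0), KIF2C (19.9 and 14.7) and KIF20B (19.9 and 15.6) overlapped. Those of KIF18B (15.3 and 14.3) overlapped with KIF11 and KIF2C and lay below those of KIF20B.

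Whether INX-315 changed the height of the peaks could be tested only for genes with a peak in every library of the fit, so a gene that lacked a DMSO peak could not enter. For 3 of the 10 genes all 8 libraries had one. In a limma fit of log2 fold enrichment over the 3762 genes of this kind, all 3 were higher with INX-315 in the mean over lines, as were 95.6% of all genes fitted. KIF11 rose by 1.32 ± 0.32 on the log2 scale (SE, adjusted p = 7.99e-05), KIF23 by 1.25 ± 0.32 (adjusted p = 1.77e-04) and KIF18B by 1.23 ± 0.32 (adjusted p = 2.20e-04). The median of all genes was 1.30, at the same place, and the 3 genes stood at percentiles 52.4, 44.5 and 42.2. When each library was instead centred on its own median over these genes and refitted, the differences were -0.01 for KIF11 (adjusted p = 0.976), -0.10 for KIF18B (0.767) and -0.08 for KIF23 (0.832), and none was called. The rise at the 3 kinesin promoters thus lay in the middle of the range over all genes. The calls of KIF11, KIF18B and KIF23 were kept when any 1 library was left out. Swapping treatment labels inside each line, in an exact two-sided permutation test, gave p = 0.0556 for each gene, the smallest value that 36 arrangements allow. Depth differed between treatments, with 0.495 and 0.501 fragments per base in the DMSO libraries of OVCAR-3 against 0.307 and 0.421 with INX-315, and 0.445 and 0.380 against 0.405 and 0.216 in Kuramochi. Its part in the rise was not tested.

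With each line fitted alone, 4 kinesins could be tested in OVCAR-3 and 5 in Kuramochi. In each of these 9 cases both INX-315 values exceeded both DMSO values, which was so for 94.8% of all genes fitted in OVCAR-3 and 90.2% in Kuramochi. In OVCAR-3 81.4% of 5332 genes were called higher, with a median of 1.43. KIF23 rose by 1.59 ± 0.51 (adjusted p = 0.00483), KIF11 by 1.45 ± 0.51 (0.00879) and KIF18B by 1.33 ± 0.51 (0.0143). KIF18A, at 0.97 ± 0.51, did not pass (0.0647), and with the replicate number as a block it did (0.0255). In Kuramochi 74.8% of 4952 genes were called higher, with a median of 1.12. KIF20B rose by 1.26 ± 0.40 (0.00396), KIF11 by 1.19 ± 0.40 (0.00603), KIF18B by 1.13 ± 0.40 (0.00931), KIF2C by 1.04 ± 0.40 (0.0156) and KIF23 by 0.91 ± 0.40 (0.0320). With the block KIF2C (0.0511) and KIF23 (0.0818) no longer passed.

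With 1 library of a line left out, these fits had 1 residual degree of freedom, and the calls depended on which library it was. Without OVCAR-3 INX-315 replicate 1 or Kuramochi DMSO replicate 2, every kinesin called with all libraries was still called. The share of all genes called was also higher there. In the fits that follow, calls were lost over all genes as well as at the kinesins. In OVCAR-3 no gene was called by limma without DMSO replicate 1 (2392 of 7243 had an unadjusted p under 0.05) or without INX-315 replicate 2 (3021 of 5333), and 2.53% were called without DMSO replicate 2. KIF11, KIF18B and KIF23 were not called in any of these 3 fits (adjusted p = 0.0627 to 0.288), with differences of 1.48, 0.96 and 1.87 without DMSO replicate 1, 1.41, 1.71 and 1.31 without DMSO replicate 2, and 1.14, 0.80 and 1.17 without INX-315 replicate 2. In Kuramochi 31.5% of genes were called without DMSO replicate 1 and 18.9% without INX-315 replicate 1, and none of the 5 kinesins in either (0.0677 to 0.310). Their differences were 0.79 to 1.02 in the first case and 0.63 (KIF11) to 1.09 (KIF20B) in the second. KIF23 was not called without INX-315 replicate 2 either (1.00, 0.0772), where 64.1% of genes were. The change did not differ detectably between lines: the difference of OVCAR-3 minus Kuramochi was 0.25 ± 0.64 for KIF11, 0.21 ± 0.64 for KIF18B and 0.68 ± 0.64 for KIF23 (adjusted p of 1.000 each). None of the 3762 genes passed that test by limma, and 106 had an unadjusted p under 0.05. In a bulk library a higher peak can mean more cells with Rb at the promoter or more Rb in each, and these cannot be told apart.

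**Figure D3:**
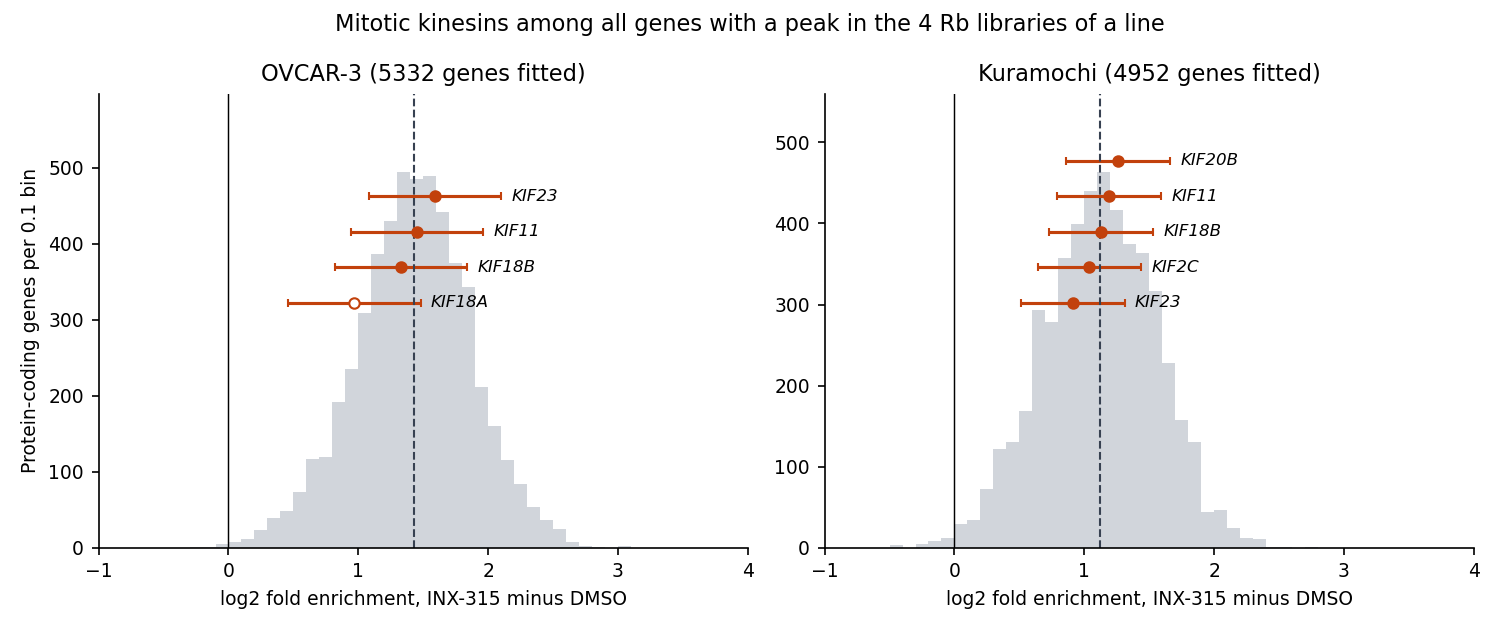
Distribution of the log2 difference in fold enrichment (INX-315 minus DMSO) over all protein-coding genes with a peak in the 4 Rb libraries of a line, in bins of 0.1, with the median as a dashed line (1.43 in OVCAR-3 and 1.12 in Kuramochi). Points with bars give the kinesins ± SE, filled where the adjusted p was under 0.05, at arbitrary heights; all lie in the body of the distribution.

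Fold enrichment includes the local background and the 1 added to both terms, which pull the ratio down more at low depth. The summit fragments were therefore also expressed as multiples of the mean background of the library. On this scale KIF11 went from 45.2 ± 1.84 to 156 ± 26.2 in OVCAR-3 and from 31.0 ± 12.0 to 89.0 ± 21.1 in Kuramochi (mean ± SD, n = 2 each). KIF23 went from 18.1 ± 5.80 to 72.2 ± 19.0 and from 17.0 ± 1.91 to 44.0 ± 9.83, and KIF18B from 38.1 ± 13.9 to 121 ± 51.1 and from 22.1 ± 5.87 to 75.8 ± 30.4. The log2 differences were 1.66 for KIF11, 1.69 for KIF18B and 1.68 for KIF23 in the mean over lines. All 3 were called, as were 99.7% of all genes fitted, whose median was 1.64. KIF18A in OVCAR-3, with 15.1 ± 1.34 and 39.8 ± 0.849, was called on this scale (1.40 ± 0.41, limma adjusted p = 8.18e-04), a fit added after the data had been seen, in which 97.9% of all genes were called and KIF18A stood at percentile 19.9.

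The width of the same peaks changed less uniformly. In the mean over lines the difference was positive for 99.5% of the genes fitted, with a median of 0.72 on the log2 scale, and 47.8% were called wider with INX-315. KIF11 was wider by 0.93 ± 0.17 (limma adjusted p = 0.00920): its peak measured 497 and 415 bp with DMSO and 798 and 882 bp with INX-315 in OVCAR-3, and 325 and 288 bp with DMSO and 654 and 557 bp with INX-315 in Kuramochi. That call was lost narrowly without OVCAR-3 INX-315 replicate 2 (0.0513) or Kuramochi INX-315 replicate 1 (0.0505), and KIF11 did not pass in OVCAR-3 alone (0.89, 0.0541) or Kuramochi alone (0.98, 0.131). KIF18A, which could be fitted in OVCAR-3 alone, was wider there by 1.10 ± 0.22 (0.0333, 24.8% of all genes called), with peaks of 267 and 276 bp with DMSO and 593 and 571 bp with INX-315. That call was lost without DMSO replicate 1 (0.0599), INX-315 replicate 1 (0.175) or INX-315 replicate 2 (0.253), with differences of 1.07 to 1.13. In these fits limma called 9.71%, 0% and 0% of all genes, and 3157, 1520 and 1026 genes had an unadjusted p under 0.05. In Kuramochi alone 0 of 4952 genes were called wider by limma and 1311 had an unadjusted p under 0.05. KIF23 (0.80 ± 0.31, limma adjusted p = 0.0631) did not pass. Its difference was 0.43 without Kuramochi DMSO replicate 1 and 1.17 without Kuramochi DMSO replicate 2, where the medians over all genes fitted were 0.63 and 0.85. KIF18B differed by 0.16 ± 0.28 (0.588) and stood at percentile 3.99 of all genes. In OVCAR-3 its peaks were 895 and 747 bp wide with DMSO and 623 and 834 bp with INX-315, so that they overlapped in width while their heights did not.

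Other genes of the pathway were counted from fixed lists. Of 7 further kinesins with a role in mitosis, 3 were bound with DMSO and 5 with INX-315 in each line. KIF2A, a relative of KIF2C, KIF22, a chromosome arm motor, and KIF24, a centriole kinesin, had a peak in all 8 libraries, and KIF2B and KIF4B in none. Of 31 transport, ciliary and other kinesins and light chains, 8 were bound with DMSO in each line, and 25 in OVCAR-3 and 21 in Kuramochi with INX-315. KIF1B, KIF1C, KIF26A, KIFC2 and KLC1 had a peak in all 8 libraries and KIF19 in none. The DMSO counts of these 31 genes (25.8% in each line) lay near those over all protein-coding genes (26.8% and 24.9%), as did the share with a peak in all 8 libraries (16.1% against 18.8%). With INX-315 their shares were 80.6% in OVCAR-3 and 67.7% in Kuramochi, against 55.5% and 53.2% of all protein-coding genes. A high share bound with INX-315 was thus not particular to the mitotic kinesins. Of 16 partners and regulators of mitotic kinesins, 7 were bound with DMSO in OVCAR-3 and 8 in Kuramochi, and 16 and 14 with INX-315. AURKA, INCENP, CDCA8, NUMA1 and CEP170 had a peak in all 8 libraries.

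RACGAP1, the other subunit of centralspindlin, had no DMSO peak in OVCAR-3, 5.99 and 10.2 with INX-315, and in Kuramochi 4.37 in DMSO replicate 2 and 4.27 in INX-315 replicate 1 only, lower than its partner KIF23 in each of these libraries. MAPRE1, the end-binding protein that brings KIF18B to plus ends, was listed at 10.9 and 22.7 in the INX-315 libraries of OVCAR-3 and in no DMSO library, and in Kuramochi at 4.86 and 5.20 with DMSO and 11.0 and 9.01 with INX-315. CIT, the citron kinase gene that KIF14 works with, had 4.51 and 3.91 with DMSO and 10.8 and 22.1 with INX-315 in OVCAR-3, and none, 4.94, 7.95 and 5.76 in Kuramochi. TPX2, which acts with KIF11 and KIF15 on the spindle, had none and 6.84 with DMSO and 16.0 and 22.2 with INX-315 in OVCAR-3, and none and 5.20 with DMSO and 16.7 and 19.8 with INX-315 in Kuramochi. For these 4 partners too, the INX-315 libraries held the higher values, apart from RACGAP1 in Kuramochi. Among the other partners, 2 also overlapped between treatments in Kuramochi. CEP170 had 8.42 and 18.0 with DMSO and 13.6 and 15.9 with INX-315. KIFBP had none and 7.64 with DMSO and 8.45 and 5.20 with INX-315.

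**Figure D4:**
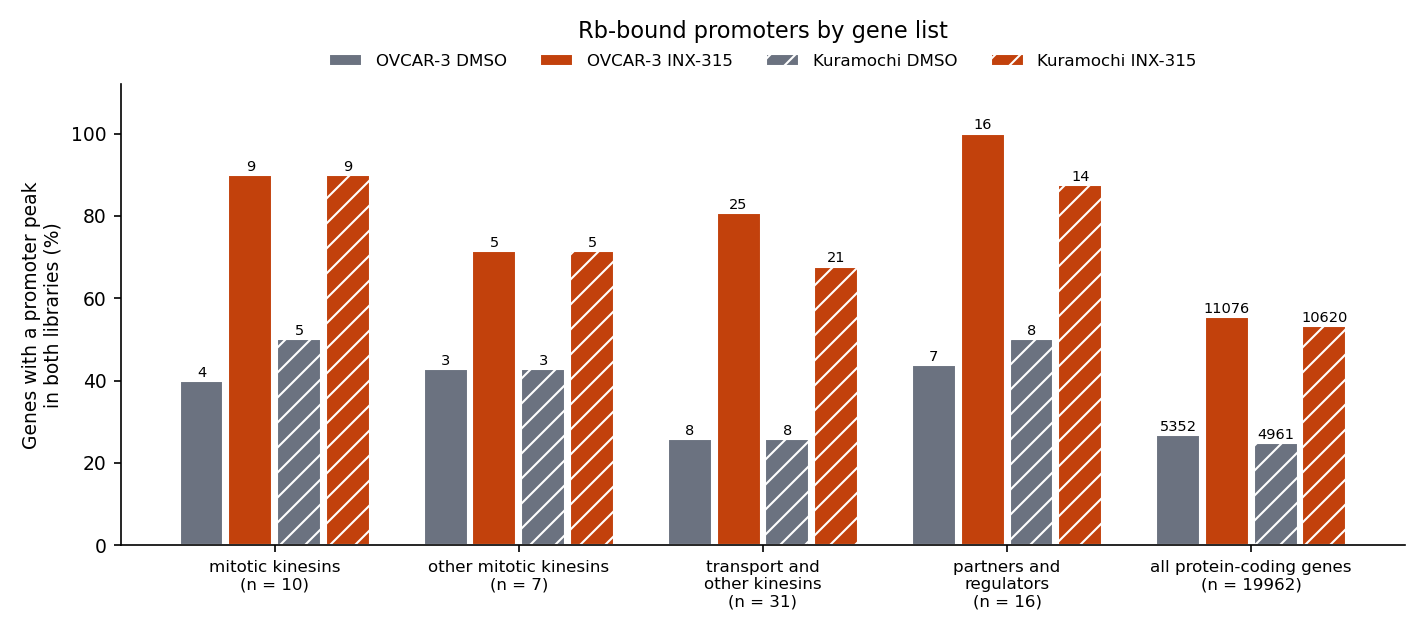
Share of genes (%) with an Rb peak at the promoter in both libraries of a group, for the 10 mitotic kinesins, the 3 comparison lists and all protein-coding genes, with the number of genes above each bar. Grey bars are DMSO and orange INX-315, and hatched bars are Kuramochi. Every list had more bound genes with INX-315, the mitotic kinesins 9 of 10 in each line beside 55.5% and 53.2% of all genes.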

How the data were processed

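Rb CUT&RUN peak lists of 8 Rb and 2 IgG2a libraries were used, with groups and replicate numbers from the sample labels. The authors trimmed and aligned the reads to hg38 with Bowtie2 2.3.4.1, kept duplicates, and called peaks in each library with MACS2 2.2.7.1 at a q-value of 0.05 against the IgG2a library of the line. The deposited lists give position, summit, a fold enrichment (a linear ratio written by the authors' peak caller), −log10 p-value and −log10 q-value. The 10 genes and the comparison lists were chosen with earlier results of these data known, and the named genes were the 10 members, comparison kinesins listed in all 8 libraries or in none, and partners by role, of which RACGAP1, MAPRE1, CIT and TPX2 are given with values.

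Promoters ran from 2000 bp upstream to 500 bp downstream of every GENCODE release 44 transcript start (252835 in all), with an overlap of at least 1 bp, and the highest peak stood for a gene. Summit fragments were recovered from fold enrichment and p-value within a relative tolerance of 3e-05, uniquely for at least 98.6% of peaks of each library. Differences were fitted with limma 3.58.1 in R 4.3.3 on log2 values with group means and no pseudocount, and p-values were adjusted by Benjamini-Hochberg over all genes fitted, with a threshold of 0.05. The fold fit gave an infinite prior, so all genes shared 1 estimate of spread. The study's count-based test needs reads and was not run here. Alternatives covered the promoter window, the canonical start, stricter q-values, summit position, equal list length, single libraries, the replicate block, recovered fragments, centring, the nearest peak and single lines. Promoter sequences are RefSeq (GRCh38.p14).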

Additional observations from a re-analysis of the deposited data

How the results depend on the processing

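With lists of equal length, 2 kinesins were bound in OVCAR-3 under DMSO, 4 in OVCAR-3 under INX-315 and 4 in Kuramochi under INX-315, and 0 were gained in each line. At a q-value of at most 0.001, 1 of 3 was gained in Kuramochi (22.8% of all such genes). Leaving out single libraries of a line gave 4 to 7 bound in OVCAR-3 DMSO (7 without DMSO replicate 2) and 5 to 7 in Kuramochi DMSO. The shares of all genes ran from 26.8% to 37.0% and from 24.9% to 39.0%. Under INX-315 9 to 10 were bound in each line (55.5% to 64.9% of all genes in OVCAR-3, 53.2% to 59.8% in Kuramochi). In each line 2 to 4 were gained (4 without OVCAR-3 DMSO replicate 1 and without Kuramochi DMSO replicate 2). Of all genes free of DMSO peaks, 27.9% to 41.5% were gained in OVCAR-3 and 25.1% to 36.7% in Kuramochi. In the fits over both lines, every kinesin fitted was called higher in fold enrichment whichever library was left out, as were most genes. The kinesins called wider moved together with the share of all genes called wider. Both were lowest without OVCAR-3 INX-315 replicate 2 or Kuramochi INX-315 replicate 1. Both were highest without OVCAR-3 DMSO replicate 2, where 5 kinesins could be fitted, or Kuramochi DMSO replicate 2. Kuramochi alone gave 5 called higher, of 5 fitted, and 0 wider (74.8% and 0% of all genes fitted).

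Centring each library on its median left 0 called higher and 0 wider. The differences then were -0.01 for KIF11, -0.10 for KIF18B and -0.08 for KIF23 over both lines. In OVCAR-3 alone they were -0.06 for KIF11, -0.53 for KIF18A, -0.17 for KIF18B and 0.08 for KIF23, and in Kuramochi alone 0.02 for KIF11, -0.05 for KIF18B, -0.14 for KIF2C, 0.09 for KIF20B and -0.27 for KIF23. The width difference of KIF18B changed sign when centred (-0.56), in OVCAR-3 alone (-0.18) and without Kuramochi INX-315 replicate 1 (-0.09, in a range up to 0.42 over the libraries left out). Centring removes by construction whatever all genes share; the cause of the other changes was not tested. Of 178 values recomputed for single kinesins, 128 kept their direction and side of the threshold, 34 kept the direction but no longer passed, 4 newly passed and 12 changed sign.

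Same-numbered replicates did not deviate together (correlation -0.03 in OVCAR-3 and 0.00 in Kuramochi), so the numbers only name samples. With the replicate block the same 3 kinesins passed over both lines (adjusted p = 6.77e-05 for KIF11, 1.90e-04 for KIF18B and 1.53e-04 for KIF23). Depth limits what could be seen: the highest DMSO peaks of these genes rested on 7 to 24 fragments, and a gene below the listing limit cannot be fitted.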
